A study of Nannochloropsis oceanica with 6 samples.

Results

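The genes described here make up the vesicle trafficking and autophagy machinery of Nannochloropsis oceanica, a small marine alga of the eustigmatophytes, as far as the deposited descriptions name it. Membership followed the Swiss-Prot description of each gene. A gene was taken in where that text, without the organism name, held a trafficking word such as Rab, vesicle, vacuolar protein sorting, syntaxin, SNARE, coatomer, clathrin, AP-1 to AP-5 complex, ADP-ribosylation factor, exocyst, autophagy or trafficking protein, and held neither kinase nor ligase. This gave 135 of 10633 genes, and 0 were lost to the words kinase or ligase. No measured value entered this rule, though it was set with earlier results of these data known.

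The samples were 6 column reactors of strain IMET1, and poly(A) RNA was sequenced from each. In 3 of them (low CO2) aeration was changed to 0.04% CO2 after 1 h at 5% CO2. The other 3 (high CO2) stayed at 5% CO2. All 6 were sampled 24 h later and shared 25 °C, 80 µmol photons m-2 s-1, 800 ml of a modified f/2 medium with 10 mM Tris at pH 8.2, and a starting OD750 of 1.5. Each group is thus 3 separate cultures of 1 strain, grown from common seed cells and seen at 1 time point.

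Eukaryotic cells move proteins and lipids between the endoplasmic reticulum, Golgi, vacuole and cell surface in coated vesicles. Small GTPases of the Rab and ARF families mark the membranes, coats such as COPI and clathrin shape the vesicles, tethering complexes catch them, and SNARE proteins fuse them with the target. Autophagy uses part of the same machinery to enclose cytoplasm in a double membrane and carry it to the vacuole. In algae it is best known as a route for recycling cell material when nutrients run short, and the genes were mostly characterised in yeast, animals and plants.

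The libraries held 4620234 to 6112822 counts, and the 135 genes took 1.02% to 1.16% of them, so each level is relative to all poly(A) RNA and less RNA per cell would not show. Low CO2 replicate 1 and high CO2 replicate 3 were unlike the other libraries of their groups and are called here the libraries that stood apart. Pearson's correlations of log2 levels were taken over 9244 genes. For low CO2 replicate 1 they were 0.9418 and 0.9464 with high CO2 replicates 1 and 2, but 0.9235 and 0.9324 with low CO2 replicates 2 and 3. High CO2 replicate 1 was at 0.944 with high CO2 replicate 3, and at 0.9457 and 0.9503 with low CO2 replicates 2 and 3. High CO2 replicate 2 was at 0.9523 with high CO2 replicate 3, above its 0.939 and 0.9431 with low CO2 replicates 2 and 3. High CO2 replicate 3 was thus nearer to its own group than to low CO2 replicates 1 to 3 (0.929, 0.8918 and 0.8874). Of the 133 members that passed the filter on low counts, 15 and 15 differed by more than 2-fold between low CO2 replicate 1 and replicates 2 and 3, against 4 between replicates 2 and 3. High CO2 replicate 3 differed from replicates 1 and 2 at 17 and 13 members, against 1 between replicates 1 and 2. For a named member whose call changes without low CO2 replicate 1, the log2 fold change and adjusted p without it stand beside the result. Those that change only without both libraries that stood apart are given together further on. The fit without low CO2 replicate 1 called 27 of 133 members and 1610 of 9334 genes. This library was singled out for its distance from its group in these same data. Leaving it out lowers the spread within low CO2, so a call gained this way cannot count as support for a difference.

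Of the 133 members tested, 3 rose in low CO2, 0 fell and 130 did not pass. A call here means an adjusted p below 0.05 in edgeR's quasi-likelihood test, with the Benjamini-Hochberg method applied over all 9244 genes tested. Those that rose encode the Golgi membrane protein SFT2B, a very large VPS13-type lipid transfer protein and the tethering subunit VPS52. This is 2.26% of the members, and among all genes tested 2.12% were called (1.22% higher and 0.898% lower), so the share of members called was close to that of all genes. At an unadjusted p below 0.05 there were 18 members, 7 higher and 11 lower, which is 13.5% against 18.6% of all genes. The median log2 fold change (low over high CO2) was -0.08 over the members and 0.01 over all genes tested, with 59 members above 0 and 74 below. DESeq2 called 7 of the 129 members it gave an adjusted p, 5.43% against 6.44% of all genes, and these were the 3 above, ATG11 (NO06G02270) and, lower in low CO2, VAMP711 (NO02G05910), TRAPPC3 (NO09G00970) and VPS29 (NO26G01410).

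**Figure D1:**
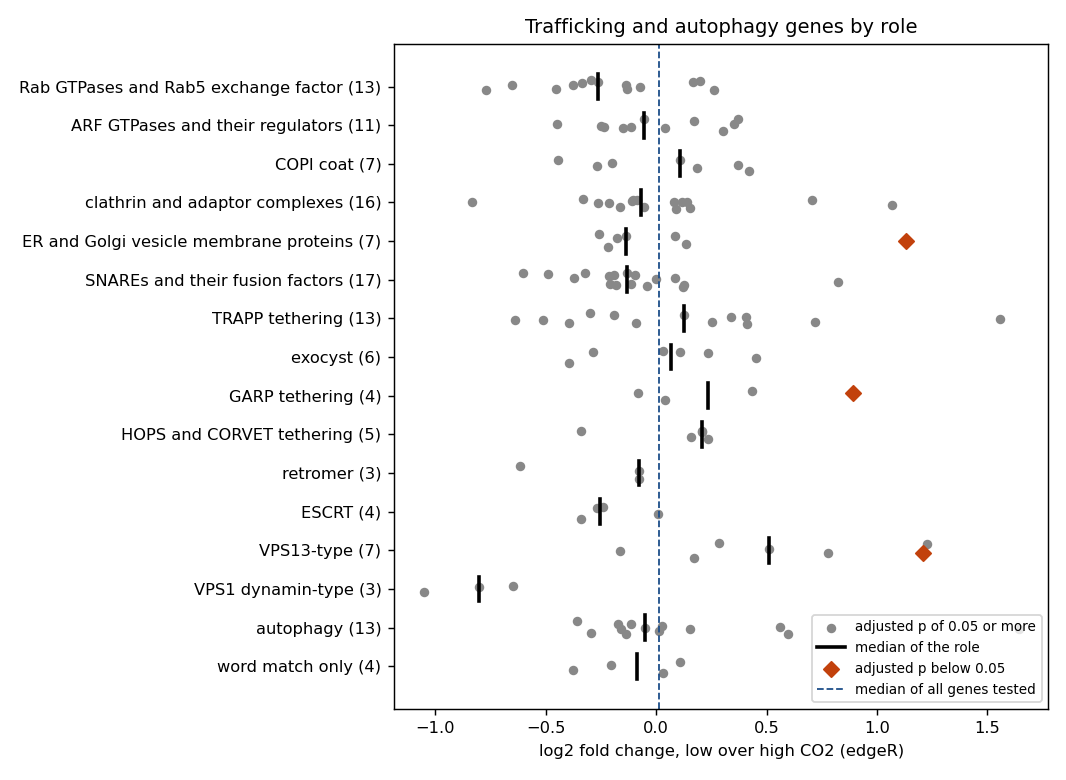
The log2 fold change of the 133 tested members (low over high CO2, horizontal axis) is plotted by role, with the number of genes in brackets. Each point is 1 gene, diamonds are the 3 called genes, black bars are medians of a role and the dashed line is the median of all genes tested (0.01). The VPS13-type genes have the highest median (0.51) and the VPS1 genes the lowest (-0.80).

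NO06G04040, described as vesicle transport protein SFT2B, rose in low CO2 with the lowest adjusted p of the members. In yeast, Sft2 is a small membrane protein of the Golgi that acts in the fusion of incoming vesicles. The gene stood at 133, 120.2 and 109 FPKM (fragments per kilobase of gene, scaled to the size of the library) in low CO2 replicates 1 to 3, against 50.8, 49.2 and 40.6 FPKM in high CO2 replicates 1 to 3. The groups were far apart, and both libraries that stood apart elsewhere lay close to their own group here. Means were 121 ± 12 FPKM in low CO2 and 46.9 ± 5.49 FPKM in high CO2 (SD, n = 3 each). The counts gave a 2.19-fold rise (log2 1.13, SE 0.14, adjusted p = 0.0112 in edgeR). The log2 ratio of mean FPKM was larger, 1.37, since the gene length the authors used for NO06G04040 differed 1.22-fold between libraries. In the authors' deposited table, NO06G04040 has a log2 fold change of 1.14 and an adjusted p of 7.61e-09.

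Next to it, NO06G04050 carries the same description in a shorter model of 624 bases, against a mean of 1779 bases for NO06G04040. Its levels were 30.4, 57.0 and 36.8 FPKM in low CO2 and 38.7, 40.2 and 32.6 FPKM in high CO2, which overlap. On the log2 scale this shorter model differed by 0.08 (SE 0.26, adjusted p = 0.882 in edgeR), and it turned to -0.18 without low CO2 replicate 2. Counting between such neighbours is uncertain, so the pair was also summed. Together they reached 186 ± 15.9 CPM (the count relative to the TMM-scaled size of the library) in low CO2 and 92.2 ± 8.60 CPM in high CO2 (SD, n = 3 each), a ratio of 2.02. A further SFT2-type gene, the SFT2A-described NO06G02350, was at -0.22 on the log2 fold scale (adjusted p = 0.637 in edgeR).

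NO04G03200, described as a putative VPS13C, rose 2.31-fold in low CO2 and had a low level in both groups. VPS13 proteins are long rods that carry lipids between organelles at membrane contact sites, as shown in yeast and animals. Its model of 16671 bases is the longest of the members. It had 1.45, 1.52 and 1.35 FPKM in low CO2 and 0.63, 0.58 and 0.58 FPKM in high CO2. All 3 low CO2 libraries were above all 3 high CO2 libraries, on 110 to 140 counts against 46 to 53. Its log2 fold change was 1.21 (SE 0.19, adjusted p = 0.0280 in edgeR). With a smooth trend on gene length removed from each library, it was 1.08 and the adjusted p for NO04G03200 was 0.0872, which no longer passed. The authors' deposited table gives NO04G03200 an adjusted p of 0.00021. SFT2B, VPS13C and ATG11 (NO06G02270) are the 3 members in it, and VPS52 (NO15G02690) is not among them.

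NO15G02690, described as VPS52 A, is 1 of 4 members named as subunits of GARP, the complex that tethers endosome-derived vesicles at the Golgi in yeast and plants. It was at 28, 28.6 and 31.7 FPKM in low CO2 and at 13.1, 17.3 and 15.0 FPKM in high CO2. Again no library crossed over. This was a 1.85-fold rise (log2 0.89, SE 0.15, adjusted p = 0.0363 in edgeR). The other GARP subunits had log2 fold changes of 0.43 for VPS53 (NO13G00120), 0.04 for VPS54 (NO07G01630) and -0.08 for VPS51 (NO16G02270), and none of these passed (adjusted p = 0.370, 0.894 and 0.937 in edgeR). VPS53 was at 0.64 (adjusted p = 0.0331) without low CO2 replicate 1. VPS51 varied widely among the cultures, from 5.15 to 9.31 FPKM in low CO2 and from 2.87 to 13.2 FPKM in high CO2.

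All 3 calls were lost under the replicate block and without high CO2 replicate 1 or high CO2 replicate 2. SFT2B (NO06G04040) was the 1 member called when high CO2 replicate 3 was left out (adjusted p = 0.0436 in edgeR), and likewise for replicates 2 and 3 of low CO2 (adjusted p = 0.0454 and 0.0480). Over the 14 alternatives run, the adjusted p ranged from 6.37e-09 to 0.114 for SFT2B (called in 11), from 0.000173 to 0.407 for VPS13C (NO04G03200, called in 6) and from 3.69e-05 to 0.252 for VPS52 (NO15G02690, called in 8). Direction held in all 14, where the log2 fold change ranged from 0.97 to 1.35 for SFT2B, from 0.61 to 1.28 for VPS13C (NO04G03200) and from 0.78 to 0.98 for VPS52 (NO15G02690).

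**Figure D2:**
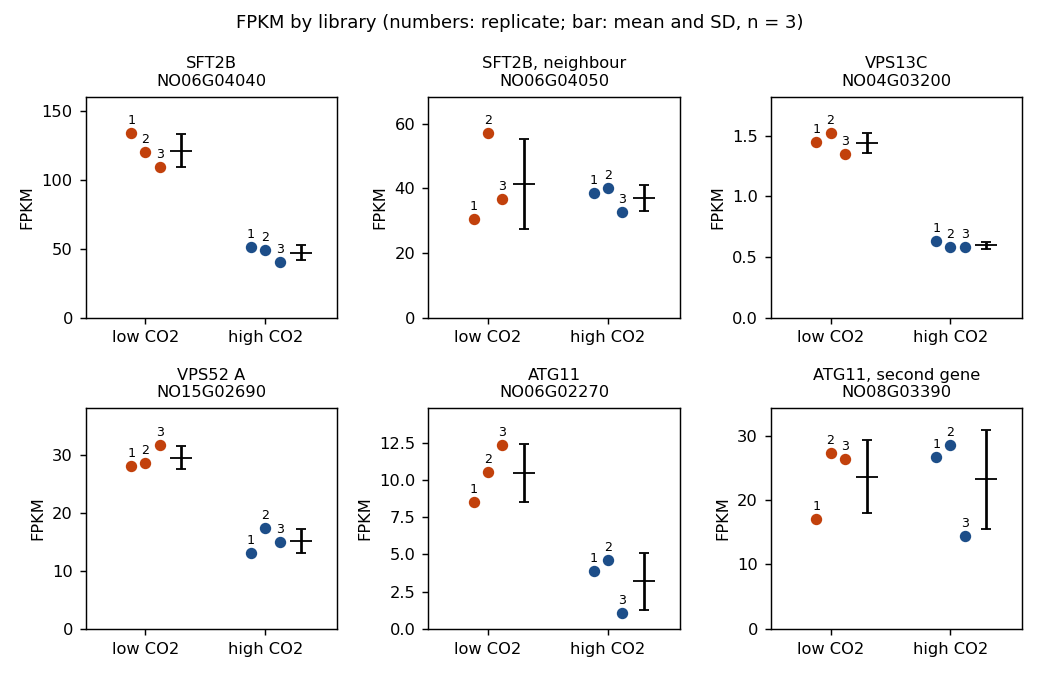
FPKM (vertical axis, from 0) of 6 genes in the 3 low CO2 libraries (left) and the 3 high CO2 libraries (right), with the replicate number beside each point and the mean and SD as a bar (n = 3). SFT2B NO06G04040, VPS13C, VPS52 A and ATG11 NO06G02270 have no overlap between groups, while the neighbour NO06G04050 and the second ATG11 gene NO08G03390 overlap.

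None of the 13 autophagy genes passed, and their median log2 fold change was -0.05, with 6 above 0 and 7 below. At 119 FPKM over all libraries, the most abundant was NO26G00270, ATG8, the ubiquitin-like protein that is attached to the autophagosome membrane. It was at 113, 123 and 130.4 FPKM in low CO2 and at 128, 131 and 90.1 FPKM in high CO2, so the groups overlapped. ATG8 was at 0.01 on the log2 fold scale (SE 0.15, adjusted p = 0.974 in edgeR). Without high CO2 replicate 3, the low library of its group, it was -0.12.

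The enzymes and scaffolds around ATG8 were likewise without a call. ATG5 (NO22G01960), part of the conjugation system, had 22.8, 19.7 and 18.5 FPKM in low CO2 and 22.8, 20.5 and 22.3 FPKM in high CO2 (log2 fold change -0.17, adjusted p = 0.637 in edgeR). ATG9 (NO14G01160), the lipid-moving membrane protein of the forming autophagosome, had 11.7, 17.1 and 19.2 FPKM in low CO2 and 17.4, 16.6 and 7.16 FPKM in high CO2 (0.15, adjusted p = 0.818). In both groups the lowest ATG9 value was that of the library that stood apart. ATG3, the enzyme that passes ATG8 to its lipid, is described at the neighbouring NO21G00470 and NO21G00480. Their summed level was 17.6 ± 2.97 CPM in low CO2 and 18.5 ± 2.46 CPM in high CO2 (SD, n = 3 each).

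ATG11, a scaffold of selective autophagy in yeast, is described at 2 genes. NO06G02270 had 8.51, 10.6 and 12.4 FPKM in low CO2 and 3.91, 4.65 and 1.04 FPKM in high CO2, without overlap. Its log2 fold change of 1.64 (SE 0.46, 3.12-fold) was the highest of the 133 members, but it did not pass (adjusted p = 0.128 in edgeR). It rests on 55 to 106 counts in low CO2 and 7 to 33 counts in high CO2. The authors' deposited table lists NO06G02270 with a log2 fold change of 1.66 and an adjusted p of 0.0189, and DESeq2 gave an adjusted p of 0.0167, within a range of 0.000922 to 0.404 over the 14 alternatives. The longer NO08G03390 was at 17.1, 27.3 and 26.3 FPKM in low CO2 and at 26.6, 28.6 and 14.4 FPKM in high CO2 (log2 fold change -0.05, SE 0.26, adjusted p = 0.931 in edgeR). The difference between the 2 genes was not tested.

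Rab GTPases are the switches that give each membrane its identity. Among the 12 Rab genes and the Rab5 exchange factor VPS9A, 0 passed, 3 had log2 fold changes above 0 and 10 below, and the median was -0.26, while 4489 of all 9244 genes tested were below 0. Rab-7b (NO13G01770), the late endosome and vacuole type, was at 91.8, 63.3 and 70.7 FPKM in low CO2 and at 92.8, 96.8 and 108 FPKM in high CO2. Low CO2 replicate 1 lay just below the lowest high CO2 library, and replicates 2 and 3 were lower. Rab-7b was at -0.45 on the log2 fold scale (SE 0.21, adjusted p = 0.287 in edgeR), which was -0.70 (adjusted p = 0.0160) without low CO2 replicate 1, and its adjusted p ranged from 3.72e-05 to 0.637 over the alternatives.

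Rab-5B (NO10G00910), an early endosome type, had the highest mean level of the Rab genes, 209.9 FPKM. Its FPKM of 166, 219 and 222 in low CO2 overlapped the 199, 248 and 206 of high CO2, while its counts gave -0.38 on the log2 fold scale (SE 0.13, adjusted p = 0.176 in edgeR). The gene length the authors used for NO10G00910 differed 1.25-fold between libraries, which enters FPKM and not the counts. Rab-2A (NO25G00350), of the endoplasmic reticulum to Golgi route, had 25.9, 33.6 and 28 FPKM in low CO2 and 22.4, 31.5 and 68.5 FPKM in high CO2. Its log2 fold change of -0.65 (adjusted p = 0.450 in edgeR) rested on high CO2 replicate 3 and was 0.06 without it. Rab-8A (NO09G01320), of the route to the cell surface, was the 1 Rab gene without overlap that stood higher in low CO2, at 152, 183 and 155 FPKM against 151, 136 and 107 FPKM in high CO2 (0.26, adjusted p = 0.395).

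ARF GTPases recruit coats to Golgi membranes, and GTPase-activating proteins switch them off. None of the 11 genes tested in this family passed (median -0.05, 5 above 0 and 6 below). The most abundant ARF gene, NO11G03550, had 281, 141 and 141 FPKM in low CO2 and 248, 272 and 232 FPKM in high CO2. Low CO2 replicates 2 and 3 were below every high CO2 library, and replicate 1 was above all of them. NO11G03550 was at -0.45 on the log2 fold scale (SE 0.32, adjusted p = 0.482 in edgeR) with all libraries and at -0.96 (adjusted p = 0.00206) without low CO2 replicate 1. Over the alternatives its adjusted p ranged from 1.24e-09 to 0.825. Its neighbour NO11G03560, also described as an ARF, did not follow it, with 89.8, 76.7 and 77.8 FPKM in low CO2 and 78.7, 74.8 and 91.8 FPKM in high CO2. The ARF neighbours NO06G03640 and NO06G03650 were at -0.15 and 0.04 on the log2 fold scale (adjusted p = 0.738 and 0.975 in edgeR). NO06G03640 was at -0.44 (adjusted p = 0.0422) without low CO2 replicate 1. Summed, the pair reached 103 ± 33.6 CPM in low CO2 and 113 ± 5.81 CPM in high CO2 (SD, n = 3 each). The GTPase-activating protein AGD8 (NO12G02570) was at 0.35 on the log2 fold scale (adjusted p = 0.551 in edgeR). ARF-like 13A (NO09G03350) had 0 to 4 counts in a library and was not tested.

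COPI, the coat of vesicles that return from the Golgi to the endoplasmic reticulum, had 7 subunit genes and 0 calls. Its gamma subunit (NO15G02980) had the highest level, 113, 141 and 139 FPKM in low CO2 and 166, 172 and 215 FPKM in high CO2, without overlap. On counts, the log2 fold change of the gamma subunit was -0.27 (SE 0.15, adjusted p = 0.377 in edgeR), smaller than the log2 ratio of mean FPKM, -0.49, since the gene length used for it differed 1.36-fold between libraries. Zeta-2 (NO01G05350) was at 79.2, 58.4 and 57.0 FPKM in low CO2 and at 80.2, 84.7 and 93.1 FPKM in high CO2 (-0.45, adjusted p = 0.286, and -0.71, adjusted p = 0.00720, without low CO2 replicate 1). Alpha-1 (NO06G00680) went the other way, with 5.39, 9.58 and 10.7 FPKM in low CO2 and 7.20, 7.67 and 3.31 FPKM in high CO2 (0.42, adjusted p = 0.532). Subunits of this 1 coat thus had estimates of both signs, none past the threshold.

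Clathrin and its adaptor complexes form the vesicles of the late Golgi and the plasma membrane, and 0 of their 16 genes passed (median -0.07). The clathrin heavy chain (NO01G02520) was at 65.2, 55.8 and 52.6 FPKM in low CO2 and at 55.1, 57.0 and 60.6 FPKM in high CO2 (log2 fold change -0.05, adjusted p = 0.878 in edgeR). AP-1 sigma-1 (NO25G01680), the small subunit of the Golgi adaptor, had 57.2, 37.4 and 42.9 FPKM in low CO2 and 60.7, 73.9 and 101 FPKM in high CO2. Its groups did not overlap, and the log2 fold change was -0.83 (SE 0.29, adjusted p = 0.183). It was -1.10 (adjusted p = 0.0299) without low CO2 replicate 1. AP-3 delta-1, a large subunit of the adaptor for the vacuole route, is described at the neighbours NO05G03040 and NO05G03050. The pair summed to 31.5 ± 5.08 CPM in low CO2 and 15.8 ± 8.04 CPM in high CO2 (SD, n = 3 each), and neither gene passed alone (adjusted p = 0.735 and 0.215). NO05G03050 was at 1.07 on the log2 fold scale, and at 1.30 (adjusted p = 0.0456) without low CO2 replicate 1.

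SNAREs and the factors that load and recycle them had 18 genes, of which 17 were tested, 0 passed, 4 had estimates above 0 and 13 below. VAMP711 (NO02G05910), a vacuolar SNARE type in plants, came nearest to a call. It was at 82.3, 90.2 and 88.3 FPKM in low CO2 and at 127, 113 and 125 FPKM in high CO2, without overlap (log2 fold change -0.49, SE 0.12, adjusted p = 0.0909 in edgeR, and 0.0293 in DESeq2, with 0.0006 to 0.407 over the alternatives). Without low CO2 replicate 1, VAMP711 was at -0.52 (adjusted p = 0.0247 in edgeR). The syntaxin-1A homolog (NO02G01280), of the plasma membrane type, had 46.2, 37.8 and 40.9 FPKM in low CO2 and 54.9, 56.5 and 70.7 FPKM in high CO2 (-0.60, SE 0.20, adjusted p = 0.169, and -0.76, adjusted p = 0.0317, without low CO2 replicate 1). The most abundant SNARE, v-SNARE 12 NO04G03160, was at 176, 132.3 and 148 FPKM in low CO2 and 177, 178 and 229 FPKM in high CO2 (-0.32, adjusted p = 0.331).

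Vesicle-fusing ATPase, known as NSF, takes used SNARE bundles apart, and 4 members carry this description. NO19G02680 had 4.34, 7.28 and 8.71 FPKM in low CO2 and 4.17, 3.34 and 3.93 FPKM in high CO2 (log2 fold change 0.82, SE 0.26, adjusted p = 0.165 in edgeR, and 1.02, adjusted p = 0.0176, without low CO2 replicate 1). The more abundant NO22G01070 stood at 25.6, 31.6 and 33.8 FPKM in low CO2 and at 36.9, 35.7 and 25.7 FPKM in high CO2 (-0.18, adjusted p = 0.544). NO03G05540 had a log2 fold change of 0.13 (adjusted p = 0.617), and its neighbour NO03G05550 is listed at 0 in all 6 libraries, which makes it the other member that was not tested. SEC22b (NO27G01670), the SNARE of the endoplasmic reticulum and Golgi, had a log2 fold change of -0.21 (adjusted p = 0.541).

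TRAPP, a tether and Rab activator built from several small subunits and a few large ones, showed estimates of both signs among 13 genes, of which 0 passed. The small core subunit TRAPPC3 (NO09G00970) was at 162, 202 and 189 FPKM in low CO2 and at 267, 236 and 322 FPKM in high CO2, without overlap (log2 fold change -0.64, SE 0.16, adjusted p = 0.107 in edgeR, and 0.0360 in DESeq2, with 0.00264 to 0.376 over the alternatives). TRAPPC2 (NO07G04480), the most abundant of all members, was at 547, 456 and 443 FPKM in low CO2 and 559, 594 and 617 FPKM in high CO2 (-0.30, adjusted p = 0.267, and -0.42, adjusted p = 0.0257, without low CO2 replicate 1). Its neighbour NO07G04470, with the same description, had higher values in low CO2, 123, 97.6 and 91.2 FPKM against 87.4, 78.3 and 85.9 FPKM in high CO2 (0.25, adjusted p = 0.487).

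The 3 longest TRAPP genes had estimates above 0, and the next in length had estimates of both signs, -0.19 for TRAPPC13 (NO06G01790) and 1.56 for TRAPPC10 (NO05G02680), with adjusted p = 0.539 and 0.260 in edgeR. These were picked after their values were seen. TRAPPC8 (NO08G01640, 5601 bases) had 3.92, 10.1 and 9.92 FPKM in low CO2 and 5.71, 5.26 and 2.75 FPKM in high CO2 (log2 fold change 0.72, SE 0.37, adjusted p = 0.338 in edgeR, and 1.00, adjusted p = 0.0433, without low CO2 replicate 1). In TRAPPC11 (NO05G03360) and the TRAPPII subunit 120 homolog (NO09G00290), both long, the log2 fold changes were 0.41 and 0.41 (adjusted p = 0.383 and 0.409), and NO09G00290 was at 0.63 (adjusted p = 0.0271) without low CO2 replicate 1. At TRAPPC8 and TRAPPC11 low CO2 replicate 1 lay within the high CO2 range, and at NO09G00290 it lay below it, while low CO2 replicates 2 and 3 lay above it at all 3 genes.

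Of the 6 exocyst genes, which tether vesicles to the plasma membrane, 0 passed (median 0.07). Exocyst component 4 (NO16G02740), the most abundant, had 18.3, 36.3 and 37.1 FPKM in low CO2 and 29.6, 34.1 and 30.2 FPKM in high CO2 (log2 fold change 0.03, adjusted p = 0.951 in edgeR). Component 1 (NO06G03770) was at 0.45 and component 7 (NO18G02120) at -0.39 on the same scale (adjusted p = 0.346 and 0.339), and component 1 was at 0.64 (adjusted p = 0.0477) without low CO2 replicate 1.

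At the vacuole and endosome, the HOPS and CORVET tethers, retromer and the ESCRT complexes had 5, 3 and 4 genes, and 0 passed in each. Retromer returns sorting receptors from endosomes to the Golgi, and its small subunit VPS29 (NO26G01410) had 142, 111 and 132.3 FPKM in low CO2 and 184, 193 and 195 FPKM in high CO2. These groups did not overlap (log2 fold change -0.62, SE 0.17, adjusted p = 0.117 in edgeR, and 0.0498 in DESeq2, with 5.71e-05 to 0.391 over the alternatives). Without low CO2 replicate 1, VPS29 was at -0.77 (adjusted p = 0.0126 in edgeR). The partner subunits VPS26 (NO18G01850) and VPS35 (NO11G01060) stood at -0.08 and -0.08 (adjusted p = 0.793 and 0.734). VPS27 (NO14G02030), which starts ESCRT assembly, was at 72.6, 70.4 and 67.7 FPKM in low CO2 and 89.9, 90.0 and 75.2 FPKM in high CO2 (-0.34, adjusted p = 0.213, and -0.44, adjusted p = 0.0289, without low CO2 replicate 1). The HOPS subunit VPS11 is described at the neighbours NO11G02520 and NO11G02530, which summed to 79.2 ± 19.1 CPM in low CO2 and 95.6 ± 7.44 CPM in high CO2 (SD, n = 3 each).

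VPS1, the dynamin-type GTPase that pinches membranes in yeast, is described at 3 members, and NO18G01620 had the lowest estimate of all members. NO18G01620 had 432 FPKM in low CO2 replicate 1 but 129 and 125 FPKM in replicates 2 and 3, against 425, 480.1 and 507 FPKM in high CO2. Low CO2 replicate 1 was thus at the high CO2 level, while replicates 2 and 3 were far below it. With all libraries the log2 fold change was -1.05 (SE 0.52, adjusted p = 0.325 in edgeR). Without low CO2 replicate 1 it was -2.02 (adjusted p = 0.000301), and without both libraries that stood apart it was -1.93 (SE 0.07). Its adjusted p ranged from 1.47e-14 to 0.667 over the alternatives.

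The other VPS1 copies moved within groups as well. NO18G01610 had 107, 4.92 and 70.7 FPKM in low CO2 and 116, 159.5 and 11.5 FPKM in high CO2, and NO18G01580 had 15.8, 7.85 and 9.41 FPKM in low CO2 and 29.3, 24.5 and 2.62 FPKM in high CO2. Between NO18G01480 and NO18G01630 the tables describe 10 dynamin-type genes, 3 as VPS1 and 7 as dynamin-A or dynamin-1, and the split of reads between such copies is uncertain. Summed, the 10 genes reached 3761, 1051 and 1389 CPM in low CO2 replicates 1 to 3 and 3823, 4297 and 3332 CPM in high CO2. Low CO2 replicate 1 was at the high CO2 level in the sum too, which does not depend on the split between copies.

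**Figure D3:**
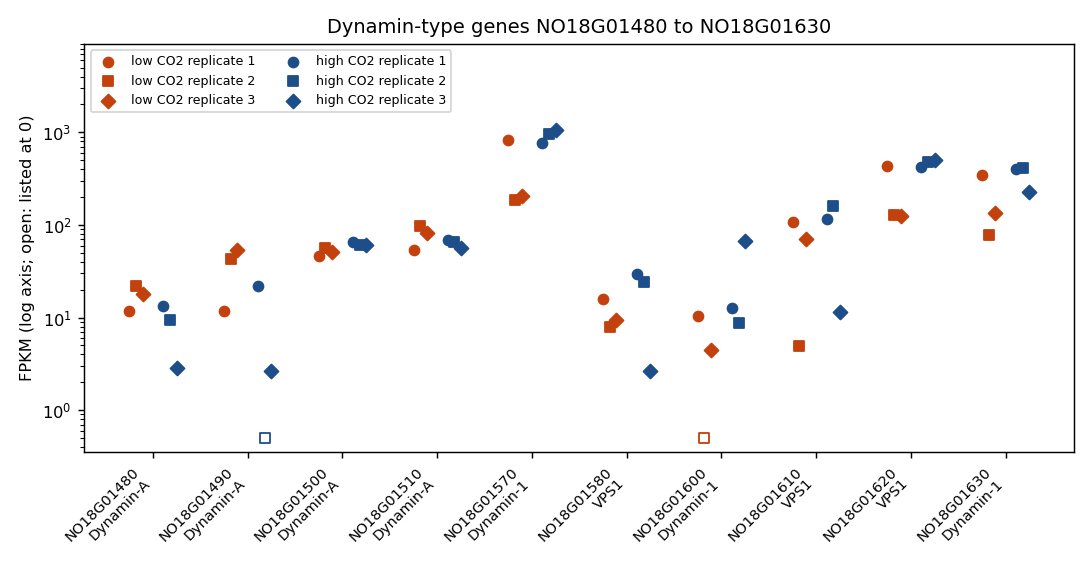
FPKM (vertical log axis) of the 10 dynamin-type genes from NO18G01480 to NO18G01630, in low CO2 (left of each pair) and high CO2 (right), with a marker per replicate and open markers for genes listed at 0. At NO18G01570, NO18G01620 and NO18G01630 low CO2 replicates 2 and 3 lie below low CO2 replicate 1 and all high CO2 libraries.

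VPS13-type proteins were the role with the highest median, 0.51 over 7 genes, of which 1 passed (NO04G03200), 6 had estimates above 0 and 1 below. Besides the called gene, the highest was the VPS13D-described NO04G04080, at 0.34, 1.71 and 1.87 FPKM in low CO2 and 0.83, 0.53 and 0.21 FPKM in high CO2 (log2 fold change 1.23, SE 0.64, adjusted p = 0.347 in edgeR, and 1.64, adjusted p = 0.0414, without low CO2 replicate 1). The most abundant, the VPS13C-described NO04G00610, had 10.2, 27.4 and 29.1 FPKM in low CO2 and 22.3, 18.9 and 10.4 FPKM in high CO2 (0.29, adjusted p = 0.721). In both of these genes the lowest value of each group was that of the library that stood apart. The median length of this role was the longest of the roles, 13159 bases against 1780.0 bases over all tested members. With a smooth trend on length removed from each library, its median log2 fold change was 0.37, still the highest of the roles.

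Fold change ran with gene length across the members. Spearman's correlation of length with the log2 fold change was 0.35 across 133 members and 0.22 across 9244 genes, where genes share the same 6 libraries and are not independent. In the 19 members of up to 1000 bases the median log2 fold change was -0.22, and 6 of them were above 0. In the 12 members longer than 5000 bases the median was 0.23, and 9 were above 0. Over all genes these medians were -0.15 and 0.13, with 530 of 1484 and 312 of 462 genes above 0. With a smooth trend on length removed from each library, the members' correlation was 0.11, and 2 members were called, SFT2B (NO06G04040, adjusted p = 0.0104) and VPS52 (NO15G02690, adjusted p = 0.0479), among 2.35% of all genes.

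Both libraries that stood apart differed from their groups along the same axis. Low CO2 replicate 1 minus the mean of replicates 2 and 3 had a Spearman's correlation with length of -0.41 across the members, and its median was 0.41 log2 units at up to 1000 bases and -0.87 above 5000 bases. For high CO2 replicate 3 minus the mean of replicates 1 and 2 the correlation was -0.37, and the medians were 0.18 and -0.41. Long members were thus lower in these 2 libraries than in the rest of their groups. Without both libraries, the correlation of length with the log2 fold change was 0.36 across the members and 0.19 across 9226 genes. The members' median log2 fold changes were then -0.28 at up to 1000 bases and 0.28 above 5000 bases. The part of these library differences in the estimates of single genes was not tested beyond these values and the length correction above.

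**Figure D4:**
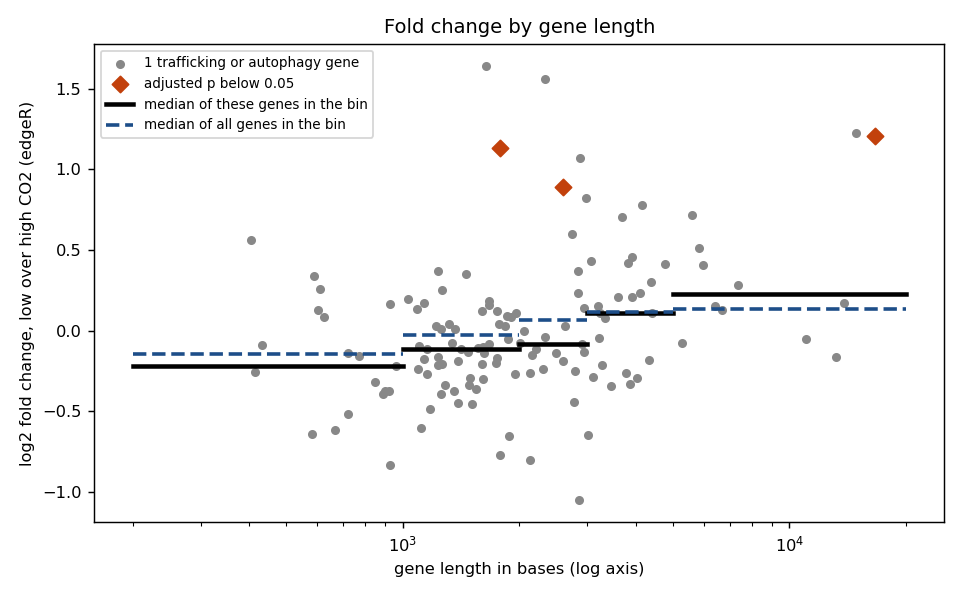
The log2 fold change (low over high CO2, vertical axis) of the 133 tested members against gene length in bases (log axis). Black lines are medians of the members in 5 length bins and dashed lines those of all genes; in the shortest bin they are at -0.22 and -0.15, and in the longest at 0.23 and 0.13.

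**Figure D5:**
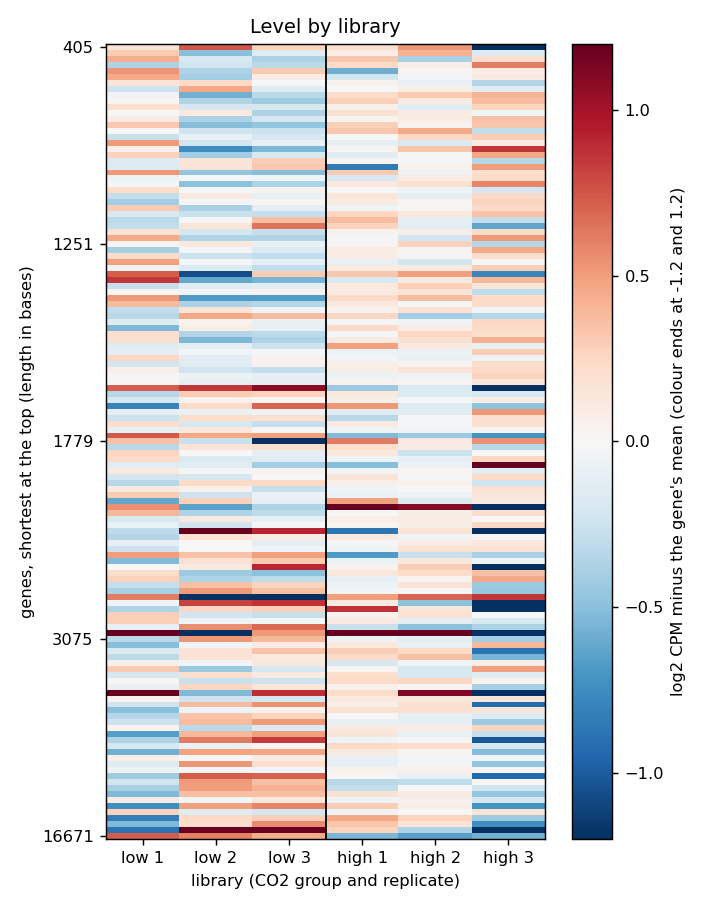
Each row is 1 of the 133 tested members, ordered from the shortest gene at the top to the longest at the bottom, and each column is 1 library, low CO2 on the left. Colour is log2 CPM minus the gene's mean over 6 libraries, and among the longest genes low CO2 replicate 1 and high CO2 replicate 3 are mostly blue (lower).

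Without both libraries that stood apart, 18 members were higher and 33 lower in low CO2, and 82 did not pass. The 51 calls are 38.3% of the members, against 36.6% of all genes (13.5% higher and 24.8% lower among members, 17.2% and 19.4% among all genes). Each group then held 2 libraries, and no test of the difference in shares was made. Both libraries were picked for their distance from their groups in these same data. Leaving them out lowers the spread within groups, so the rise in calls cannot count as support for a difference. The following named members were called here, but neither with all libraries nor without low CO2 replicate 1. They were higher at TRAPPC10 NO05G02680 (log2 fold change 1.597), ATG11 NO06G02270 (1.32) and the VPS13C-described NO04G00610 (0.35). They were lower at VPS1 NO18G01580 (-1.74), TRAPPC3 NO09G00970 (-0.45), v-SNARE 12 NO04G03160 (-0.35), VPS72 NO12G01840 (-0.35), SEC22b NO27G01670 (-0.34), Rab-5B NO10G00910 (-0.28), NSF NO22G01070 (-0.26) and the clathrin heavy chain NO01G02520 (-0.16). By role, the genes that were lower included 7 of 13 Rab genes and exchange factor, 7 of 17 SNAREs and fusion factors and 4 of 13 TRAPP genes, and those that were higher included 4 of 7 VPS13-type genes, 2 of 4 GARP genes and 3 of 13 TRAPP genes. Groups whose FPKM did not overlap with all 6 libraries were counted as well. They were higher in low CO2 at 8 members (6.02%, against 13.6% of all genes) and lower at 17 members (12.8%, against 11.8% of all genes).

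A list of 69 other genes of the secretory and endosomal routes, such as COPII coat proteins, ESCRT-III proteins, the COG tether, sorting nexins and further autophagy enzymes, was set beside the members. Of these, 65 were tested and 0 passed, with 7 at an unadjusted p below 0.05 in edgeR and 0 called by DESeq2. Among all genes tested, 18.6% had an unadjusted p below 0.05 in edgeR, 2.12% passed and DESeq2 called 6.44%. The median log2 fold change of the 65 genes was -0.01, with 31 above 0 and 34 below. Of the 7, 2 were higher and 5 lower. ATG10 (NO22G00950), an autophagy conjugating enzyme, had the lowest p of this list, with 80.5, 119 and 111 FPKM in low CO2 and 167, 126 and 157 FPKM in high CO2 (log2 fold change -0.60, adjusted p = 0.128 in edgeR), and it was picked after its values were seen. Without both libraries that stood apart, 14 of the 65 were higher and 11 lower, while 17.2% and 19.4% of all genes were.

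For 4 members the shared word is not a trafficking role: VPS72 (NO12G01840), a chromatin remodelling subunit in yeast, the synaptic vesicle glycoprotein 2C-described NO03G04000, which is of a transporter family, the VAT-1 homolog NO28G00610 of an oxidoreductase family, and the ARL6-interacting protein 4 NO14G02780. None passed, and their log2 fold changes were -0.37, 0.03, -0.21 and 0.11. VAT-1 was the most abundant of them, with 81.1, 105 and 118 FPKM in low CO2 and 109, 103 and 107 FPKM in high CO2. Without these 4, the median of the other 129 tested members was again -0.08. Of annotation that the choice did not use, a gene ontology term naming vesicle, Golgi or transport stood at 82 of 135 members (60.7%), against 6.98% of all genes. These terms come with the same deposited annotation as the descriptions, and their independence was not tested.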

How the data were processed

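The submitters' processing notes name, without version or role, edgeR, StringTie, featureCounts, Picard, STAR and Trim Galore. The genome build is not given in the sources used here. The deposited table of each library gives, per the file headers, an expected count (an estimated count, not normalized) and an FPKM value per gene. In 17.5% to 19.8% of the genes of a library the count was not whole (tolerance 0.004). The FPKM deposited by the authors use a gene length that varied by over 10% between libraries at 19 of 133 tested members. A table of the authors' comparison gives log2 fold changes and p-values for 217 genes, 3 of them members. In 216 of them the sign of the log2 fold change matched low minus high CO2 on mean FPKM.

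The members and lists were chosen with earlier results of these data known. The design foresaw counts or expected counts, and expected counts were rounded to whole numbers. Genes passed filterByExpr (9244 of 10633, 133 of 135 members), libraries were TMM-scaled, and edgeR 4.0.16 in R 4.3.3 gave robust quasi-likelihood tests with Benjamini-Hochberg adjustment over all genes tested. SE is the log2 fold change over the root of F. The script was tested on simulated counts. Genes named followed a rule on calls, level and size of change within roles (at least 5 FPKM for size), and on neighbours with the same description. Members called by DESeq2 were added after their values were seen. Others named in the text complete a complex or role and were chosen after their values were seen. Alternatives were RLE in place of TMM scaling, all genes without a filter, genes averaging 50 counts or more, a block on replicate number, DESeq2 1.42.0, limma 3.58.1 on log2(FPKM + 1) with a mean of at least 1 FPKM, removal of a lowess trend on log2 length (span 0.3), and leaving out each library. Leaving out both libraries that stood apart was added later. Figures and correlations used Python 3.11.15 and SciPy 1.17.1. No sequences were used.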

Additional observations from a re-analysis of the deposited data

How the results depend on the processing

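The number of members called was 3 without a filter, with genes averaging 50 counts or more and with RLE scaling, and 2 under limma and the length correction. It was 7 in DESeq2 and 51 without both libraries that stood apart. Over the 6 fits that leave out 1 library it was 27 of 133 without low CO2 replicate 1, against 1610 of 9334 genes. It was 0 or 1 without any other library. Over all genes it was 196, with 581 in DESeq2, 3402 without both libraries and 18 to 1610 over the 6 fits that leave out 1 library, where 1610 came without low CO2 replicate 1. For the 65 other pathway genes it was 0, with 25 without both libraries and 0 to 9 over the fits that leave out 1. The fit with a replicate block called 21 genes and 0 members. The labels share only replicate numbers, and deviations of same-numbered libraries had correlations of -0.36, 0.08 and -0.43. The members' median log2 fold change was -0.08, with -0.035 in limma, -0.058 under the length correction, and -0.087 to -0.023 over the fits that leave out 1 library.

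Signs turned only at named genes that did not pass. Exocyst component 4 (NO16G02740) was at -0.012 with the replicate block, -0.095 in limma and -0.035 under the length correction, and from -0.13 to 0.24 without 1 library. Without both libraries, AP-3 delta-1 NO05G03040 was at -0.40, the ARF NO06G03650 at -0.66, Rab-2A (NO25G00350) at 0.0087 and ATG8 (NO26G00270) at -0.13. Over the fits that leave out 1 library, the ranges were -0.35 to 0.43 for NO06G03650, -0.18 to 0.21 for SFT2B NO06G04050, -0.21 to 0.50 for VPS11 NO11G02520, -0.20 to 0.068 for the ARF NO11G03560, -0.49 to 0.081 for AP-2 sigma NO12G02320, -0.97 to 0.060 for Rab-2A and -0.12 to 0.097 for ATG8. The cause was not tested. Depth limits genes of low counts, such as VPS13C (NO04G03200, 46 to 140 counts a library) and ATG11 (NO06G02270, 7 to 106 counts).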
